A study of Mus musculus with 8 samples.

Results

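Dense peak series are stretches where peaks of acetylated lysine 56 of histone H3 (H3K56ac) were listed as a chain, with none of them wide. They were chosen by position and width alone from the merged list of H3K56ac peaks of muscle stem cells (MuSCs). The list holds no signal, so such a chain cannot be told apart from a broad domain that was split when peaks were found. Autosomal peaks less than 1 kb apart were joined, and joined regions of 5 or more peaks were kept where no single peak reached 5000 bp. This gave 1639 dense series among 57251 autosomal joined regions. They held 10199 of 103492 autosomal peaks, or 9.85%.

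The peaks came from chromatin immunoprecipitation and sequencing of freshly isolated MuSCs, which repair and renew muscle fibres, from mice on a C57BL/6 background. The labels describe 8 libraries in 4 groups of 2, an H3K56ac and an input group for Control and the same for Sirt6mKO, where input is chromatin sequenced without immunoprecipitation. The labels say only Control, and the paper calls these cells wild type. In Sirt6mKO mice Sirt6, the gene of a histone deacetylase, was deleted in the skeletal muscle lineage with loxP sites around part of the gene and a Cre recombinase driven by the Pax7 promoter. That Cre is always active, so the deletion is not limited to adult stem cells. For another experiment the paper defines controls of Sirt6mKO mice as animals with the same loxP sites and no Cre. The labels give no age. The list does not separate the genotypes or replicates, and it holds no height or read count. No comparison of Sirt6mKO with Control could therefore be made, the depth of each library is unknown from it, and every value below describes positions of merged peaks.

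H3K56ac lies on the lateral surface of the nucleosome core, near the point where DNA enters and leaves, and it is found at active promoters and enhancers as well as on newly assembled chromatin. CBP and p300 can place the mark and SIRT6 can remove it. Enhancers often stand in groups, and in many genes such groups lie within the first intron. Promoters of 20 of 20 MuSC marker genes carried a peak within 3 kb of a transcription start site (TSS), which bears on the labelled cell type. Such a peak was common, present in 14173 of all 20807 autosomal protein-coding genes. Peaks were also present at promoters of 10 of 12 marker genes of fibro-adipogenic progenitors, 9 of 10 of smooth muscle and pericytes, 5 of 12 of endothelium and 4 of 12 of immune cells, and 1 gene, Notch3, stood in both the MuSC and the pericyte list. The part of other cells in the merged list was not tested.

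The narrowest gaps in the most extensive series are shown first because they display what separates neighbouring peaks. The bases in capitals belonged to no peak, and the 40 bases on each side belonged to the neighbouring peaks (mm10, plus strand; sequences from the RefSeq assembly of that build). They lie upstream of Dlk1 at chr12:109388283-109388363, in Dnmt3a at chr12:3826119-3826200 and in Sdc2 at chr15:32933859-32933940.
Dlk1, upstream: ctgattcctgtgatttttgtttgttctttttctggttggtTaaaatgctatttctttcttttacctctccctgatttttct
Dnmt3a: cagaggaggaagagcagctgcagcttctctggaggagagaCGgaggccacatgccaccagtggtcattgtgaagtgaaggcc
Sdc2: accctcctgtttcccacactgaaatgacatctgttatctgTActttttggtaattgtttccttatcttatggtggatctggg
The gap was 1 bp wide in the first and 2 bp wide in the other two. Such gaps separate peaks in the list but span far less than the DNA of a nucleosome.

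A dense series was 9526 bp long at the median, with a middle range from 7375 to 12461 bp and extremes of 3221 and 37125 bp. Its peaks were 1006 bp wide at the median and its gaps 214 bp. Peaks filled 85.1% of the series at the median, with a middle range from 79.7% to 89.6%. Of the 1639 series, 773 had exactly 5 peaks, 392 had 6, 202 had 7 and 272 had 8 or more, up to 21. The widest peak was 3005 bp at the median and held 33.9% of the peak bases of its series. It stood at an end of the series in 466 of 1639 series (28.4%), where end peaks made up 32.1% of all peaks. Inner peaks were 1068 bp wide at the median and end peaks 895 bp. These widths, gaps and peak numbers were used to choose the series and are given as a description.

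The limits of the choice fell within continuous ranges. Just outside the peak number stood 1693 regions of 4 peaks with none wide. The widest peak of a series just inside the width limit was 4998 bp, and the first region outside it had a peak of 5002 bp. In 175 series the widest peak was within 500 bp below the limit, beside 164 regions of 5 or more peaks whose widest peak was within 500 bp above it. In gap length, 285 inner gaps fell within 100 bp below the joining distance and 111 series ends had the next peak within 100 bp above it. The median distance from an end of a series to the next peak was 4953.5 bp.

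**Figure D1:**
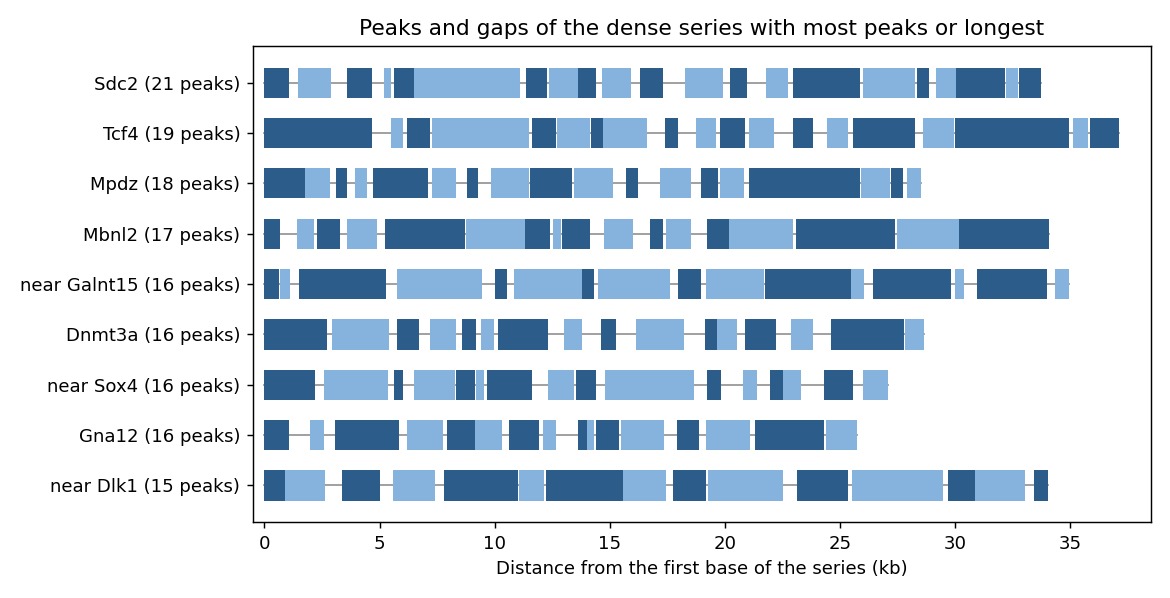
Peaks (bars, in alternating shades so that neighbours can be told apart) and gaps (line) of the 9 dense series with most peaks or greatest length, by distance from the first base of each series in kb. The Sdc2 series has 21 peaks over 33749 bp and the Tcf4 series has 19 over 37125 bp, each with short and long peaks in mixed order.

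The series with the most peaks lay over Sdc2, which encodes a heparan sulphate proteoglycan of the cell surface. It ran over 33749 bp (chr15:32920280-32954028), held the Sdc2 TSS, exon 1 and part of intron 1, and had 21 peaks from 337 to 4587 bp wide with gaps from 2 to 919 bp. The longest series lay in Tcf4, the gene of an E protein that pairs with bHLH factors such as MYOD. It covered 37125 bp (chr18:69621568-69658692) with 19 peaks and held no coding TSS. Mpdz, which encodes a scaffold protein with many PDZ domains, had 18 peaks over 28516 bp (chr4:81419633-81448148), and the splicing factor gene Mbnl2 had 17 over 34091 bp (chr14:120315662-120349752). Series of 16 peaks lay at the start of Dnmt3a, the gene of a de novo DNA methyltransferase (chr12:3806505-3835170), and at the start of Gna12, which encodes a G protein alpha subunit (chr5:140806288-140832021).

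Of these 9 series, 3 lay outside coding genes. One of 16 peaks over 34964 bp stood 12993 bp from a TSS of Galnt15, a glycosyltransferase gene, and overlapped the lincRNA gene 4930425P05Rik (chr14:31981033-32015996). Another of 16 peaks stood 103969 bp from the TSS of Sox4, a transcription factor gene, over 2610307P16Rik (chr13:28822655-28849744). The last, of 15 peaks over 34065 bp, stood 31368 bp from the TSS of the imprinted gene Dlk1 (chr12:109387417-109421481). The nearest TSS does not show which gene, if any, such a series acts on.

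Windows of 200 bp at peak centres of these series are shown for their matches to the E-box CAGCTG, the core bound by MYOD and MYF5, and to the AP-1 motif TGANTCA. Those with most matches were picked, 1 per series, with ties going to the E-box and then to genome order, and the matches are in capitals. They come from peak 8 of the series near Galnt15 (chr14:31997004-31997203), from peak 8 of the Sdc2 series (chr15:32933164-32933363) and from peak 11 of the series upstream of Dlk1 (chr12:109411574-109411773).
Near Galnt15: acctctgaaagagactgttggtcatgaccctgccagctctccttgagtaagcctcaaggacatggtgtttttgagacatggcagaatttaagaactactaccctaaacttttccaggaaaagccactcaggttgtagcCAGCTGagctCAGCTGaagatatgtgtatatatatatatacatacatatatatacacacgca
Sdc2: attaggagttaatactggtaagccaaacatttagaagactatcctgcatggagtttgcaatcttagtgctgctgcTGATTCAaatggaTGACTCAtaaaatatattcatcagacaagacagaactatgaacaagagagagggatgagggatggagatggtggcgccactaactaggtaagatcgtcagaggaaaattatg
Upstream of Dlk1: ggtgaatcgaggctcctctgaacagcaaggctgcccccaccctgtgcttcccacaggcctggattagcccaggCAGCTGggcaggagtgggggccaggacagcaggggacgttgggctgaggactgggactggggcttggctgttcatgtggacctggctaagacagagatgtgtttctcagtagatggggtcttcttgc
Across all series, CAGCTG was present in 10.9% of 10198 peak centre windows and in 400 of the 4446 windows at the centre of gaps of at least 200 bp, a ratio of 1.21 (95% interval 1.09 to 1.35). In the centre windows of other autosomal peaks the share was 11.8%, and in those of gaps of other joined regions 9.40%. TGANTCA was present in 6.36% of peak windows and 6.14% of gap windows of the series, and in 5.92% of windows of other peaks. Both motifs read the same on either strand. A match describes letters in a window and does not show that a factor was bound.

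Other motifs, searched on both strands, differed little between peaks and gaps, with 2 exceptions. The RUNX motif TGTGGT was in 15.7% of peak windows and 15.5% of gap windows, the TEAD motif GGAATG in 1118 of 10198 and 509 of 4446, and the NFI motif TTGGCA in 11.2% and 10.2%. The cAMP response element TGACGTCA was rare, in 16 peak windows and 4 gap windows. A GC box, GGGCGG, was in 3.17% of peak windows against 4.21% of gap windows, and in 6.10% of windows of other peaks. The MEF2 motif was in 2.62% of peak windows and 3.89% of gap windows. Within the series the shares of the GC box and MEF2 were lower in peaks than in gaps, with ratios of 0.753 (0.631 to 0.899) and 0.673 (0.558 to 0.812). MEF2 was also less frequent in other peaks, at 2.78%, than in gaps of other joined regions, at 3.63%. The GC box went the other way there, at 6.10% and 4.18%.

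Position relative to genes was not used to choose the series. Of the 1639 series, 372 (22.7%, 95% Wilson interval 20.7 to 24.8) overlapped the TSS of a protein-coding transcript. In all 57251 autosomal joined regions the share was 21.9%, close to that of the series. It was 48.1% in regions of 5 or more peaks that did have a wide peak. Regions of 1 to 4 peaks with a wide peak had 61.1%, those of 2 to 4 peaks with none wide 24.1%, and those of 1 peak, not wide, 15.3%. The share for dense series moved with the width limit that chose them, to 12.7% when no peak of 3 kb or wider was allowed, and it was 35.8% with the TSSs of all annotated transcripts. The intervals cover counting error only, since regions are not replicates of a sample. By their midpoints, 27.6% of the series lay in a first intron, 22.4% in another intron, 12.6% within 3 kb of a coding TSS and 35.6% outside coding transcripts. The same shares of all joined regions were 16.8%, 21.8%, 23.1% and 36.1%. A first intron held the midpoint of 16.7% of regions of 1 to 4 peaks with a wide peak and of 15.4% of regions of 2 to 4 peaks with none wide, but of 37.1% of regions of 5 or more peaks with a wide peak.

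Because longer regions meet more TSSs, regions of 7375 to 12461 bp, the middle range of the series by length, were also compared. This comparison was chosen after the data were seen. In that range 24.8% of 819 series overlapped a coding TSS (22.0 to 27.9), against 39.1% of 882 regions of 2 to 4 peaks with none wide (35.9 to 42.4), 39.8% of 128 regions of 5 or more peaks with a wide peak (31.8 to 48.5) and 57.6% of 1770 regions of 1 to 4 peaks with a wide peak (55.3 to 59.9). Midpoints within 3 kb of a coding TSS followed the same order, at 15.4%, 33.2%, 25.8% and 43.9%, except that the 2 middle classes changed places. First introns held 26.7% of the series (23.8 to 29.9) but 13.8% and 18.8% of the regions of few peaks without and with a wide peak. The TSS interval of the dense series lay below those of the other 3 classes, and their first-intron interval lay above those of the classes of fewer peaks. Regions of 5 or more peaks with a wide peak had a first-intron share of 24.2% (17.6 to 32.3), which overlapped that of the series. At a given length, regions of fewer peaks tend to hold wider ones, and classes with a wide peak hold it by rule. The contrast in TSS share therefore cannot be told apart from the peak number and width used to choose the series. Without matching by length, the share was 22.7% in the series and 24.1% in regions of 2 to 4 peaks with none wide.

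**Figure D2:**
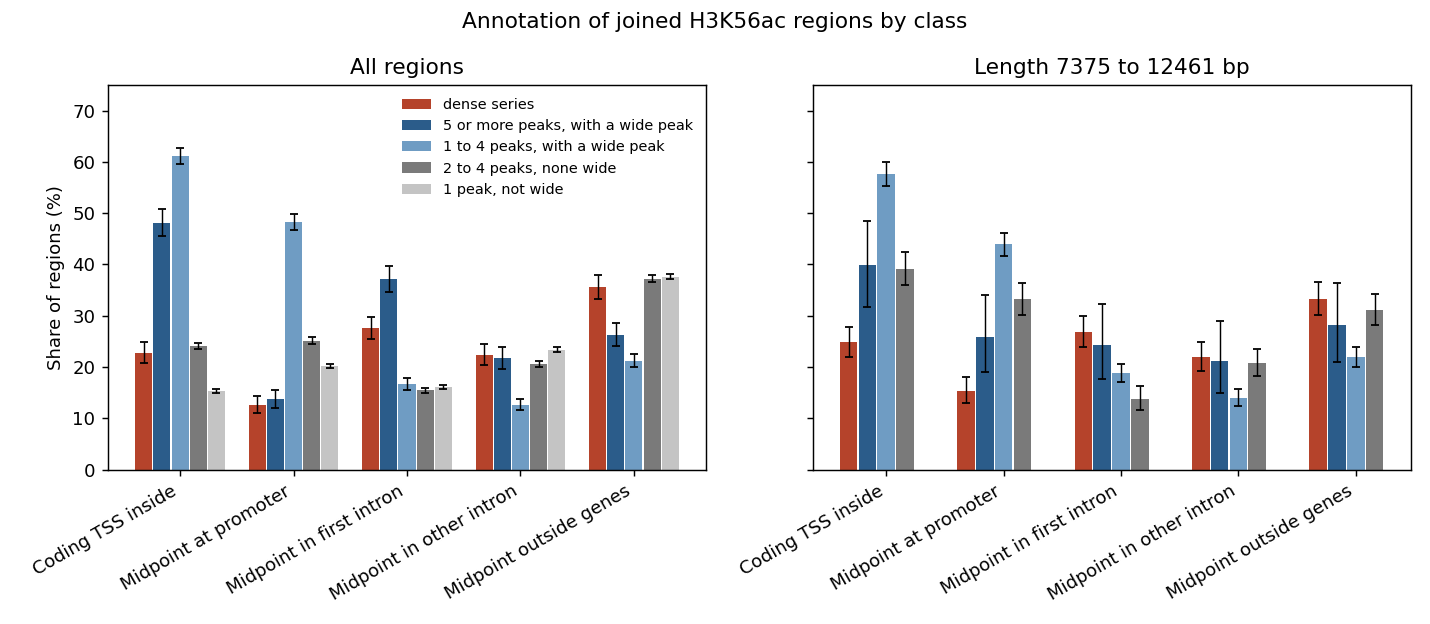
Share of joined regions (%) that overlap a coding TSS or whose midpoint falls in each gene feature, by class of region, with 95% Wilson intervals, for all regions on the left and for regions of 7375 to 12461 bp on the right. Among regions of matched length, 24.8% of dense series overlapped a coding TSS, below the other 3 classes. The classes also differ in peak number and width by the rule that made them.

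Where a series did hold TSSs, most lay in its peaks. Of 928 coding TSS positions within series, 871 (93.9%) were inside a peak, where peaks occupied 86.6% of those series. Every coding TSS was in a peak in 328 of 372 series. The share of TSSs in peaks was 97.7% in regions of 5 or more peaks with a wide peak, where peaks occupied 93.4%. It was 99.4% in those of 1 to 4 peaks with one (96.6% occupied) and 96.5% in those of 2 to 4 peaks with none (91.8%). In 360 series with a TSS in a peak, the widest peak held a TSS in 226 (62.8%, 57.7 to 67.6), and peaks with a TSS were 3001 bp wide at the median against 968 bp for the other peaks of the same series. Around 60.7% of TSSs in dense series the surrounding bases were rich in CpG, with an observed to expected ratio of at least 0.6 in the 500 bp to each side. The share was 60.8% in regions of 5 or more peaks with a wide peak, 74.5% in those of 1 to 4 peaks with a wide peak and 6.83% at TSSs outside any region.

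Series at gene starts reached further into the gene than upstream of it. In the 338 series holding the start of exactly 1 coding gene, a median of 7663 bp lay downstream and 2422.5 bp upstream of the most upstream TSS, and the downstream part was the longer in 254 (75.1%). Counted from the most downstream TSS of that gene, which favours the upstream side, the downstream part was longer in 227 (67.2%). The same values for regions of 1 to 4 peaks with a wide peak were 78.1% and 68.3%. The other 1267 series held no coding TSS and stood 36099 bp from the nearest at the median. Of all series, 31.4% lay beyond 50 kb, beside 28.6% of all joined regions.

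A region with a peak of 5 kb or wider lay within 10 kb of 450 dense series (27.5%, 25.3 to 29.7) and within 50 kb of 993 (60.6%). Within 10 kb the share was 35.6% for regions of 5 or more peaks with a wide peak of their own, 18.6% for those of 1 to 4 peaks with one, and 15.4% for those of 2 to 4 peaks with none. Another dense series lay within 10 kb of 186 (11.3%). A dense series lay that near to 14.3% of regions of 5 or more peaks with a wide peak. The share was 7.41% for those of 1 to 4 peaks with one and 5.87% for those of 2 to 4 peaks with none.

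Among 20807 autosomal protein-coding genes, 988 (4.75%) had a dense series in the gene body or a peak of one within 3 kb of a TSS, 169 had at least 2 series in the body and 40 had at least 3. Of the 14173 genes with a promoter peak, 6.7% had one. The share rose with gene length, from 1.64% of genes under 20 kb and 3.50% of those from 20 to 50 kb to 14.0% from 100 to 200 kb and 23.9% from 200 to 500 kb. It was 18.8% in the 218 genes of 500 kb or more. Genes with a series were 79.4 kb long at the median and all coding genes 17.6 kb. In 450 genes the body carried both a dense series and a region with a wide peak.

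Rora, the gene of a nuclear receptor of the circadian clock, carried the most peaks of dense series, 82 in 12 series along its 734 kb. The series began 19.7 kb after the most upstream TSS and the last ended at 651 kb, so that they spread along most of the gene, between 8 regions with wide peaks. Together the peaks of its series covered 17.5% of the gene. Rbms3, which encodes an RNA-binding protein, had 61 peaks in 9 series, all at least 186 kb from its most upstream TSS. Arhgap24, which encodes a GTPase-activating protein, had 47 in 7 series. Zbtb20, which encodes a zinc finger repressor, had 32 in 5 series but 10 regions with wide peaks. Pde4d, a cAMP phosphodiesterase gene, had 31 in 4 series, and Fto and Auts2 had 30 each.

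Thsd4, Tcf4 and the guidance cue gene Ntn1 each had 26 such peaks, and Sgms1, a sphingomyelin synthase gene, had 24. In Ntn1 the peaks of 3 series covered 19.9% of its 191 kb. The gene model Gm20388 counted 80 peaks in 14 series, but it spans 4435 kb and overlaps other coding genes, so its series cannot be assigned to it.

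**Figure D3:**
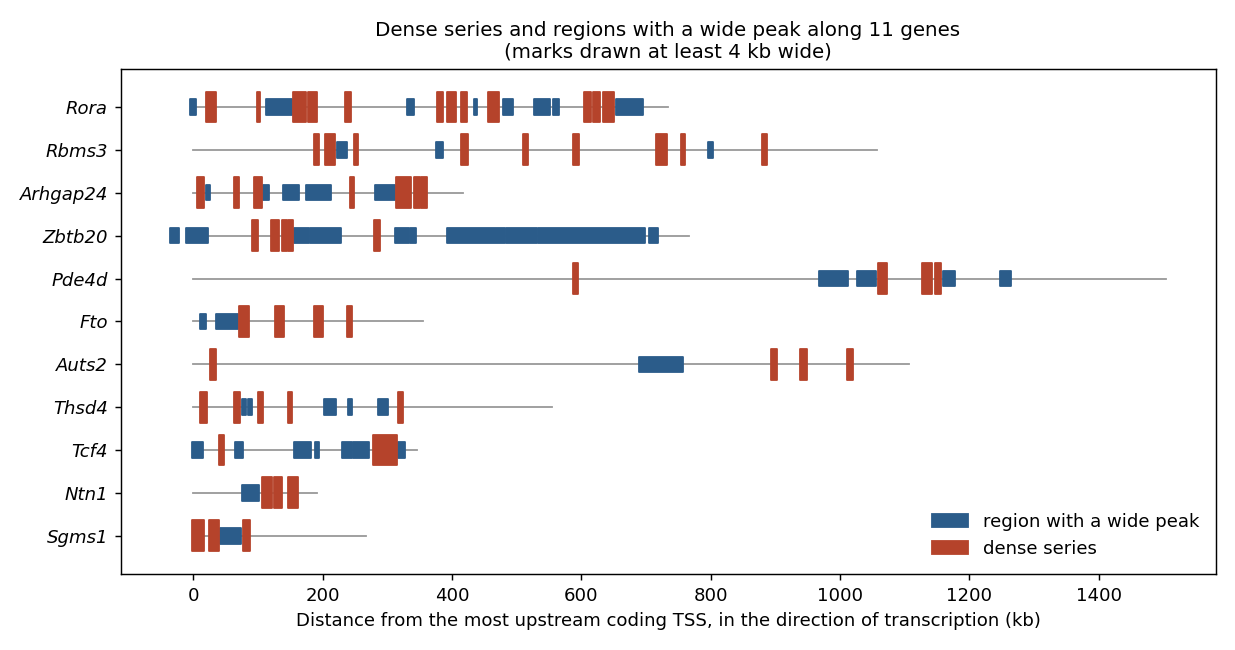
Dense series (tall marks) and regions with a wide peak (short marks) along 11 of the 12 genes with most peaks of dense series, by distance from the most upstream coding TSS in kb; Gm20388 is left out, and marks are drawn at least 4 kb wide. The 12 series of Rora stand along most of the gene, and the 9 of Rbms3 begin 186 kb from its first TSS.

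Lists of genes with known roles differed in how many members held a series. Beside each count stands the number that the lengths of the members would give if each had the share of its length bin. This yardstick was added after the data were seen. Its bins hold all coding genes, also those without a promoter peak. Among genes with such a peak the share was higher, 28.5% against 23.9% at 200 to 500 kb. The lists were chosen with earlier results of these data known, so an excess over the yardstick is only a description. Among transcription factor genes active in muscle chromatin, 12 of 30 held a series, against 4.66 from their lengths. They included Rora, Zbtb20, Tcf4, the Hippo effector gene Tead1 with 17 peaks in 2 series, Runx1 with 8 peaks and Nfib with 10. Rora, Zbtb20 and Tcf4 were also among the 12 genes with most peaks of dense series. Among actin cytoskeleton and adhesion genes 10 of 25 did, against 3.04. Palld, for an actin-bundling protein, had 12 peaks, Tns3, for a tensin of focal adhesions, had 12, Actn1 for alpha-actinin had 11, and Dag1, for the dystroglycan that links laminin to the cytoskeleton, had 9. In Actn4, also of this list, the series touched the promoter only.

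Extracellular matrix and integrin genes held series in 9 of 26, against 2.94. Fbn1, for fibrillin of elastic microfibrils, had 13 peaks in 2 series, and Lama2, for the laminin chain of muscle basement membrane, had 12 in 2. Growth factor receptor and signalling genes held them in 6 of 22, against 2.14, with 21 peaks in 4 series in Igf1r, the IGF1 receptor gene, and 9 in Smad7, for an inhibitor of TGF-beta signalling. Notch pathway genes did in 3 of 19, against 1.30. Rbpj, for the DNA-binding partner of Notch, had 11 peaks in 2 series, and Jag1 and Maml2 had 5 each. Genes of acetyltransferases, deacetylases and bromodomain proteins did in 3 of 25, against 1.69, and these were Crebbp and Ep300, for CBP and p300, and Kat6a. Members of these lists were partly picked for roles in muscle, and nearly all had promoter peaks, so a high share is not independent of activity in this tissue.

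Of the 20 MuSC markers 1 held a dense series, against 0.817 from their lengths and 4.75% of all coding genes, while 19 had a region with a wide peak in the body. Regions with a wide peak were also frequent in other lists, in 23 of 30 transcription factor genes, 17 of 22 growth factor receptor and signalling genes and 18 of 25 actin cytoskeleton and adhesion genes. The MuSC marker with a dense series was Itgb1, for integrin beta 1, where a series of 10 peaks (chr8:128725640-128739092) overlapped the gene with 4 of them and continued over Ccdc7a. Over all coding genes, 4161 of 20807 had a region with a wide peak. Pax7, the transcription factor that marks MuSCs, had 15 peaks and no dense series, and the 7-peak region at its promoter included a peak of 21301 bp. In several short lists the count was close to what gene lengths give. Immune cell markers held series in 0 of 12 genes, against 0.556 from their lengths, fibro-adipogenic markers in 0 of 12, against 0.438, smooth muscle and pericyte markers in 0 of 10, against 0.659, and endothelial markers in 1 of 12, Pecam1, against 0.976. Immediate early genes held them in 1 of 21, Jund, against 0.419, and cytosolic ribosomal protein genes in 1 of 25, Rpl3, against 0.448, both near the 4.75% of all coding genes. Nuclear receptor and circadian genes did in 3 of 20, against 1.40, and myofibre and sarcomere genes in 3 of 20, against 1.21, where Myh2 counted through its promoter only. Neuronal genes held 1 of 19, Map2, against 2.04 from their lengths, and olfactory and vomeronasal receptor genes 1 of 1455, against 26.5. Few genes of these lists had a promoter peak, 6 neuronal and 13 receptor genes. Among those, 1 of 6 (16.7%) and 1 of 13 (7.69%) held a series, beside 6.7% of all genes with a promoter peak. With 1 gene in each, these counts are too small to show whether such genes with a promoter peak held series less often.

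Of 7 genes at the centre of the study, Utrn, Pax7, Mstn, Sirt6, Hspa2, Dab2 and Ptpn22, 0 held a dense series, where their lengths would give 0.610 and 4.75% of all coding genes held one, so that the count is near the background. Utrn, the gene of the dystrophin relative utrophin, had 56 peaks over its 487 kb. Regions of 18 and 9 peaks lay within 3 kb of its TSSs, but their widest peaks of 9113 and 7363 bp placed them among regions with a wide peak. Sirt6 had a single peak, of 2624 bp.

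**Figure D4:**
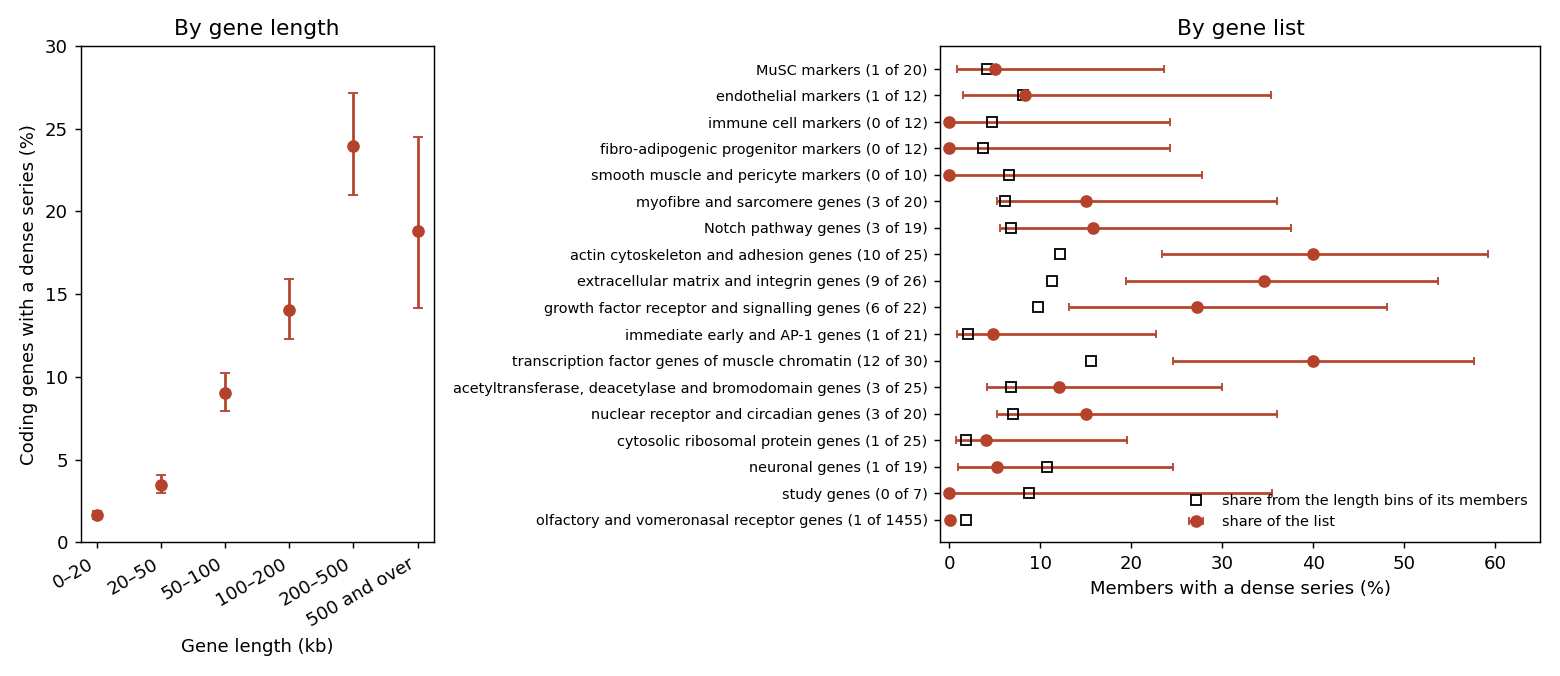
Share of coding genes (%) with a dense series, by gene length (left) and by gene list (right), with 95% Wilson intervals; open squares give the share that the length bins of a list's members would give. The share reached 23.9% in genes of 200 to 500 kb. A series was held by 12 of 30 transcription factor genes, where their lengths would give 4.66. For MuSC markers it was 1 of 20, where theirs would give 0.817. The bins hold all coding genes, and the lists were chosen with earlier results of these data known.

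Sequence composition differed between the peaks and gaps of a series mainly in repeats. Lower-case bases in the RefSeq sequence are those masked as repetitive, and they are called repeat bases here. The kinds of repeat behind this masking were not examined. Repeat bases made up 20.5% of peak bases, 32.6% of gap bases, 28.4% of the 1 kb flanks and 33.5% of the autosomes. Within a series the repeat share was 12.7 percentage points higher in gaps than in peaks (95% interval of the mean 12.02 to 13.5, SD 14.9 over series), and it was higher in the gaps of 1317 of 1639 series (80.4%). In regions of 5 or more peaks with a wide peak the difference was 17.7 points, and in regions of 2 to 4 peaks with none wide 13.8 points (13.3 to 14.2). GC content was 46.1% in peaks and 45.2% in gaps, against 41.9% of the autosomes, and differed by 0.731 points per series on average (0.557 to 0.905). This difference was 0.344 points (0.0574 to 0.631) with joining under 500 bp, and -0.0238 points in regions of 2 to 4 peaks with none wide. The ratio of observed to expected CpG was 0.239 in peaks of dense series and 0.302 in all autosomal peaks. It was as low, 0.237, in peaks of regions of 5 or more peaks with a wide peak. In peaks of dense series it was 0.332 where the series held a coding TSS and 0.201 where it held none.

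Short gaps were often either filled with repeat or free of it. Any short interval tends to lie wholly inside or outside a repeat, so these shares depend on gap length. Of the 1472 gaps of 1 to 50 bp, 37.4% were at least 80% repeat and 43.5% held no repeat base, with 46.4% of their bases in repeats. Of the 1931 gaps over 500 bp, 4.71% were at least 80% repeat and 1.86% held none, with 30.8% of bases in repeats. In gaps of other joined regions the shares at 1 to 50 bp were 40.1% and 42.0%, close to those in the dense series. Reads that align to many places were discarded before peaks were found, and the part of this in the gaps was not tested.

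Gaps of named series illustrate both kinds. In the series near Galnt15 all 217 bases of a gap were repeat (chr14:31999993-32000209), and in Mpdz all 108 bases of another (chr4:81432991-81433098), shown with repeat bases in capitals. In Dnmt3a a gap of 247 bp held none and so has no capitals (chr12:3815675-3815921).
Near Galnt15: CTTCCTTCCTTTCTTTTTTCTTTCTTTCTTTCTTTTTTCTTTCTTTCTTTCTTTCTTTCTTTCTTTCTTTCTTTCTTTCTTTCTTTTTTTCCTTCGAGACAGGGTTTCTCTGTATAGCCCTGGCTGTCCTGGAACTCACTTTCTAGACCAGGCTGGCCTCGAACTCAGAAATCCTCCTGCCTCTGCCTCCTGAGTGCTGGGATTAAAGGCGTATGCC
Mpdz: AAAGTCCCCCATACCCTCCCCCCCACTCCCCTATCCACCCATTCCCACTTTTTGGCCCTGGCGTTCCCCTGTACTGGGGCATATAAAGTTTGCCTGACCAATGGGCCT
Dnmt3a: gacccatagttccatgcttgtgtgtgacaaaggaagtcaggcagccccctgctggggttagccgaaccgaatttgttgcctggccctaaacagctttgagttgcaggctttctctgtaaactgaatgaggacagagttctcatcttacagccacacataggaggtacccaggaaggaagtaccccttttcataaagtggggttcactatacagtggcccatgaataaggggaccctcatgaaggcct

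**Figure D5:**
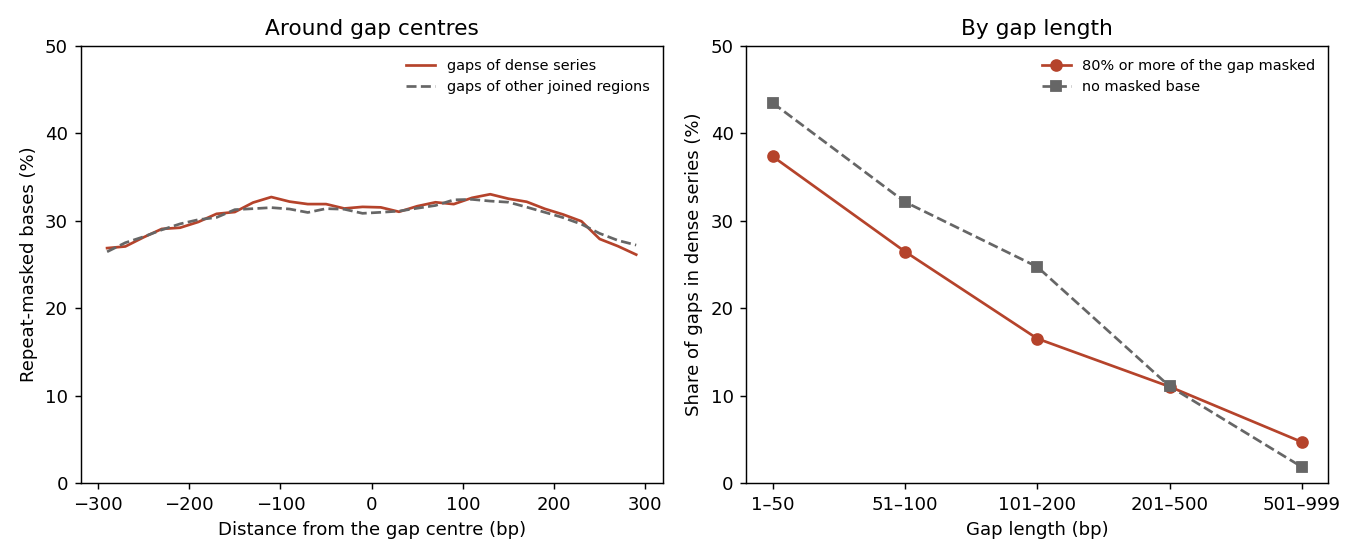
Left, share of repeat-masked bases (%) by distance from the gap centre in bp, for gaps of at least 200 bp in dense series (4446 gaps, solid) and in other joined regions (19376 gaps, dashed). Right, share of gaps in dense series (%) that are at least 80% repeat (circles) or hold no repeat base (squares), by gap length in bp; at 1 to 50 bp these were 37.4% and 43.5%.

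Dense series were present on all 19 autosomes, at 0.416 to 1.07 per Mb with a median of 0.637, and took 8.20% to 12.7% of the peaks of each.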

How the data were processed

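H3K56ac ChIP-seq and input libraries of freshly isolated MuSCs were made by the study with an Ion ChIP-Seq kit. The deposited file gives chromosome, start and end of merged peaks in base pairs, which the authors made from reads aligned to mm10 with Bowtie; the labels also name FastQC, SAMtools and deepTools, with no versions. Reads with several alignments and duplicates were removed, peaks were found with MACS2, blacklisted regions were taken out and overlapping peaks were merged. Merging fuses peaks of different libraries, so a width or a gap may reflect several libraries. The score was 0 in every row, and no column held values per sample, so no test between groups was possible.

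The members and gene lists were chosen with earlier results of these data known. Of 105600 peaks, 2108 on sex chromosomes were left out. Genes and coding TSSs came from GENCODE vM21, and sequence and repeat masking from the RefSeq GRCm38.p6 assembly, the same build as mm10. Promoters were the 3 kb to each side of a coding TSS. Named genes were those at the 8 series with most peaks and the 5 longest, the 12 genes with most peaks in dense series, the study genes and the members of the lists. Shares have 95% Wilson intervals. The scripts used Python 3.11.15, pandas 2.3.3, NumPy 2.4.6 and matplotlib 3.10.9 and were tested on simulated intervals.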

Additional observations from a re-analysis of the deposited data

How the results depend on the processing

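No paired analysis was possible because the peak list carries no replicate or genotype, and no result comes from a test. Of 60 alternative values, 32 stayed within the main interval, or within 1.5 times the main count of series, and 28 moved. The GC and repeat differences kept their sign in every setting, while counts, shares and lengths cannot change sign. The list's positions set the limits: neither peak strength nor depth can be weighed, and merged widths can span libraries. The cause of each shift was not tested, beyond the changed rule itself.

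The number of series was 851 with joining under 500 bp, 3332 with at least 4 peaks, 272 with at least 8, 816 with no peak of 3 kb or wider and 2617 with none of 10 kb or wider. Median length was then 9227, 7514, 15505, 7462 and 12107 bp. Within 1.5 times the main count were 2363 series with joining under 2 kb, 1116 with peaks of at least 500 bp and 1679 with sex chromosomes included. The median length was 10653 bp with joining under 2 kb and 10254 bp with peaks of at least 500 bp, where a gap can hold a narrower peak that was left out. The share over a coding TSS was 26.6% with joining under 2 kb, 28.3% with at least 8 peaks, 12.7% under the 3 kb limit, 30.5% under the 10 kb limit and 35.8% with TSSs of all annotated transcripts. The first-intron share was 25.4% with joining under 2 kb, 23.1% with at least 4 peaks, 36.4% with at least 8, 24.9% under the 3 kb limit and 30.3% under the 10 kb limit. The GC difference was 0.344 points with joining under 500 bp and 1.04 with 2 kb. The repeat difference was 15.7 points with 500 bp, 10.7 with 2 kb, 11.9 under the 3 kb limit and 14.3 under the 10 kb limit. The motif ratios stayed within their intervals in windows of 300 bp, but the RUNX ratio of peaks to gaps crossed 1, from 1.02 to 0.988, and so did that of the cAMP response element, from 1.74 to 0.826. The main intervals of both included 1.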
